A study of Mus musculus with 46 samples.

Results

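Nr4a1, Nr4a2 and Nr4a3 encode the NR4A orphan nuclear receptors (Nur77, Nurr1 and NOR1). They were taken by gene symbol from the authors' adjusted count and TPM tables and are 3 of the 25147 genes of the count table. All 3 passed the filter on low counts and were among the 8629 genes tested. Their levels were followed in 46 cultured mouse ovarian follicles, each a library of its own, at 0 h and after hCG (human chorionic gonadotropin), a hormone that binds the luteinizing hormone receptor and starts ovulation.

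NR4A receptors have no known natural ligand, so their activity follows largely from how much protein a cell makes. They are immediate early genes, transcribed within minutes of a stimulus from factors already in the cell. As single molecules they bind the NGFI-B response element (NBRE), as pairs they bind palindromic sites, and NR4A1 and NR4A2 also pair with retinoid X receptors. In granulosa cells, the cells that surround the oocyte and respond to luteinizing hormone, the hormone raises cyclic AMP, which acts through protein kinase A and the factor CREB. CREB binds the cyclic AMP response element (CRE), and NR4A genes are known targets of this route.

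The follicles came from CD-1 mice, an outbred stock, and grew for 8 days in alginate with recombinant follicle-stimulating hormone (rFSH). The gel was then removed and they entered medium with 1.5 IU/ml hCG, 10 ng/ml epidermal growth factor (EGF), 10 mIU/ml rFSH and 10% serum. They were frozen at 0 h (9 follicles, all of them in batch 2), 1 h (10 in batch 1 and 3 in batch 2), 4 h (10 in batch 1 and 3 in batch 2) and 8 h (11, all in batch 1). The labels give no genotype difference, no age and no follicles that went through the same hours without hCG. Effects of hCG, EGF, serum, handling and time in the new medium therefore cannot be told apart. The labels do not tie follicles to mice, and some may share an animal, so each p-value reflects follicle-to-follicle spread only.

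Total counts ranged from 241442 to 5185044 per library, and the group medians were 3286107, 730895, 1432395 and 1755429 in order of time. All 46 libraries were closest to the mean profile of their own time. Summed CPM (counts scaled to library totals with TMM factors) of the 10 granulosa markers had medians of 52500, 38100, 30900 and 19500 at 0, 1, 4 and 8 h. The largest parts at 0 h were Inha, Hsd3b1 and Inhba, with means of 27451, 10915 and 9926 CPM. No marker of the list was at 0 throughout any time, but Amh had only 1, 5, 4 and 1 counts in all at the 4 times. A set of 3332 genes with counts in batch 1 but none in the batch 2 libraries after hCG held 22.6% to 46.2% of the counts of the 0 h libraries and at most 0.0667% of any later library. No NR4A gene is in that set, and fits without those genes gave rises of 8.57, 8.04 and 9.39 on the log2 scale at 1 h against 0 h for Nr4a1, Nr4a2 and Nr4a3. In whole follicles, a change in RNA per cell and a change in the number of expressing cells cannot be told apart.

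The 3 genes lie on different chromosomes. In GENCODE M21 (GRCm38), Nr4a1 spans chr15:101254269-101274795 on the + strand, Nr4a2 chr2:57106830-57124003 on the - strand and Nr4a3 chr4:48045153-48086447 on the + strand. No other annotated gene overlaps any of them, so they share no reads with an overlapping annotated gene. Their promoter windows are shown because the 3 genes moved together and the CREB route is a known route to NR4A genes. Other inputs to these genes are known too, and which of them acted in these follicles was not tested. Each window runs from 250 bases before to 50 after the RefSeq gene start (GRCm38.p6), read 5′ to 3′ on the gene's strand, at chr15:101266596-101266895, chr2:57123954-57124253 and chr4:48045055-48045354. The RefSeq start of Nr4a1 lies inside the GENCODE gene, whose first model starts further upstream. Capitals mark CRE half-sites, TGACG or its reverse complement.
Nr4a1: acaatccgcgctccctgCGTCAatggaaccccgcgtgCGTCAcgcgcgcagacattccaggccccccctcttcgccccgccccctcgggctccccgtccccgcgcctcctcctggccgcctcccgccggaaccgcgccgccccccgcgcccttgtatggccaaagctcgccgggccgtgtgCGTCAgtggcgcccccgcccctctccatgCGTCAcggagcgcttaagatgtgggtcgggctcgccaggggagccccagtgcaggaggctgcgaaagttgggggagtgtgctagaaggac
Nr4a2: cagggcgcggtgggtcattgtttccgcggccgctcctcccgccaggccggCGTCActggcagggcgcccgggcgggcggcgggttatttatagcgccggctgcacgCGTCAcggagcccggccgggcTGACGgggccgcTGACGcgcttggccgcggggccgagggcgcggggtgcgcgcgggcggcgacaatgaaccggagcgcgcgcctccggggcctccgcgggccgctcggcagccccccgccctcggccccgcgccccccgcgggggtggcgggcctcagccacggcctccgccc
Nr4a3: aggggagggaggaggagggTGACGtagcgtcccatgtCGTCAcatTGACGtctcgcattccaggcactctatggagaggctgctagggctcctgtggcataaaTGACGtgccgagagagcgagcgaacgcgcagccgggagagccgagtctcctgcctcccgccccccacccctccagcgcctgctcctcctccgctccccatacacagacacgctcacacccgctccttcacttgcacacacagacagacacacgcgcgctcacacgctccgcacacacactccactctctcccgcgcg

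Each window holds 4 half-sites, all before the start. At least 1 half-site is found in 20.8% of the 32851 RefSeq promoter windows, and at least 4 are found in 76 of them, or 0.231%. The NR4A windows are rich in G and C, at 72.3%, 81.7% and 64.7%, and of the 9690 windows with at least 60% GC, 54 hold 4 or more half-sites, or 0.557%. In Nr4a1 every half-site is part of the 7-base variant TGCGTCA, counted on both strands. This variant is found in 2.12% of windows, and 1 window of the 32851, that of Nr4a1, holds 4. The full CRE, TGACGTCA, is in none of the 3 windows and in 1.79% of all windows. The NBRE, AAAGGTCA, to which the receptors themselves bind, is also in none of the 3, against 1.51% of all windows. A MEF2 box, searched on both strands by name, is in the Nr4a2 window, 167 to 158 bases before the start, and in 3.19% of all windows. Motifs were chosen after the windows had been seen, and a match is a run of letters, not a measured binding site.

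**Figure D1:**
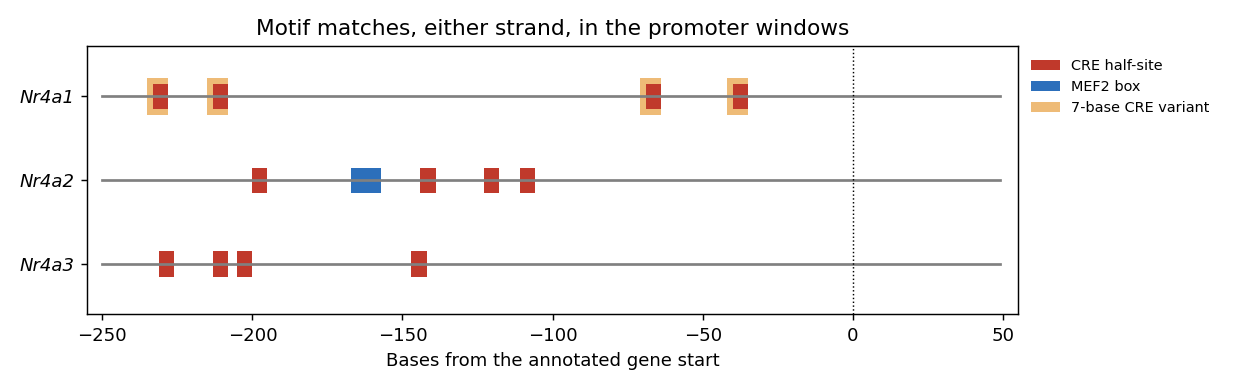
Motif matches in the promoter windows of Nr4a1, Nr4a2 and Nr4a3, by distance in bases from the annotated gene start (dotted line, position 0). Red boxes are CRE half-sites (4 in each window), pale boxes the 7-base variant that contains each of the 4 in Nr4a1, and the blue box the MEF2 box of Nr4a2.

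All 3 genes were far higher 1 h after hCG than at 0 h and had lost nearly all of that by 4 h. Nr4a1, also known as Nur77, had a lowest, median and highest CPM of 0.535, 14.7 and 45.5 at 0 h. These were 3360, 5830 and 12811 at 1 h, then 98.1, 158 and 489 at 4 h, and finally 13.4, 46.9 and 1122 at 8 h. Every follicle at 1 h was above every follicle of the other times, and every follicle at 4 h was above every follicle at 0 h. At 8 h, 1 follicle stood above all 4 h follicles and the other 10, at 13.4 to 118 CPM, lay partly within the range of 0 h.

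Nr4a2 (Nurr1) was nearly silent at 0 h. Its lowest, median and highest CPM were 0, 0.330 and 4.71 at 0 h. At 1 h they were 59.4, 245 and 927. By 4 h they had dropped to 0, 2.55 and 5.98, and the 8 h values were 0, 0.522 and 17.5. The 1 h follicles stood clear of all others, while the ranges of the remaining times overlapped. Behind the 0 h values stand 24 counts over 9 libraries, 12 of them in replicate 1, and 2 libraries had 0 counts.

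Nr4a3 (NOR1) was lowest of the 3 at 0 h, with a median of 0 TPM, a scale corrected for gene length. Its lowest, median and highest CPM were 0, 0 and 2.36 at 0 h. At 1 h they were 79.8, 203 and 559. The 4 h values were 0, 0.637 and 6.17 and the 8 h values 0, 0.927 and 8.92. Only the 1 h follicles were separate from the rest. At 0 h, 7 of 9 libraries had 0 counts and the sum was 7, of which 6 came from replicate 1. At 4 h and 8 h, 5 of 13 and 4 of 11 libraries had 0 counts.

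**Figure D2:**
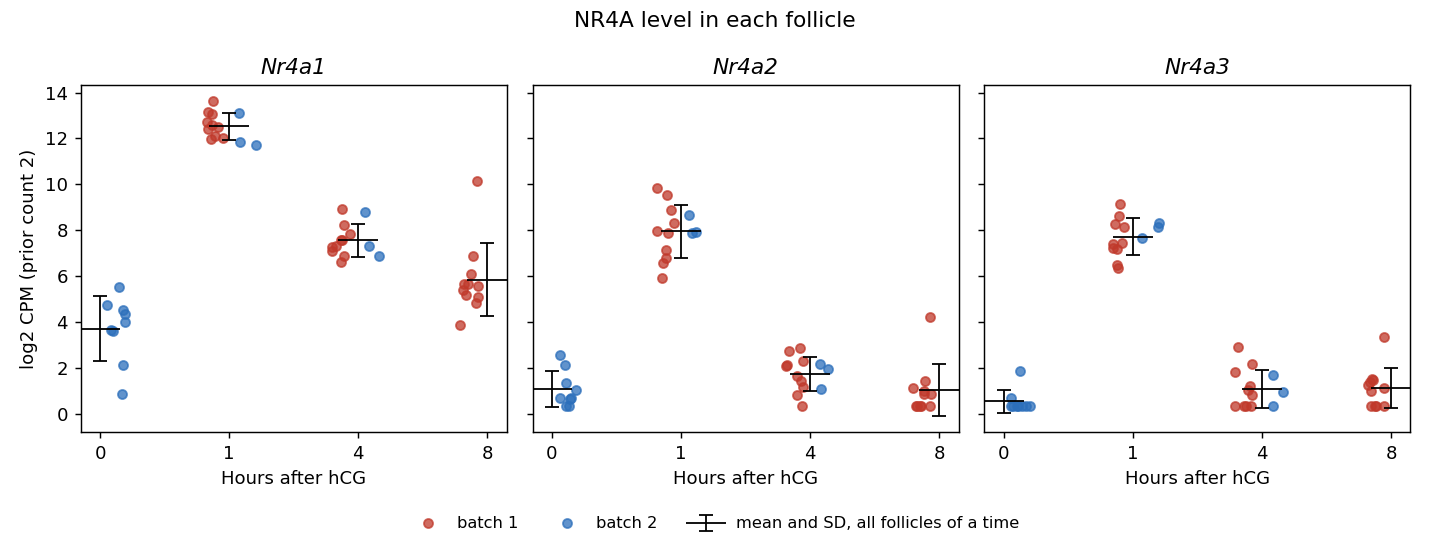
Level of each NR4A gene in each of 46 follicles as log2 CPM (prior count 2) by hours after hCG, with batch 1 in red and batch 2 in blue; bars are the mean and SD over all follicles of a time. The 1 h follicles (CPM of 3360 to 12811, 59.4 to 927, and 79.8 to 559) stand above every other follicle in each panel, and 8 h replicate 4 is the highest point of its time in all 3.

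In TPM, which allows levels of different genes to be compared, Nr4a1 was the most abundant member in all 13 follicles at 1 h. Its median of 2927 TPM ranked 44 of 25122 genes, while its medians at 0, 4 and 8 h ranked 5673, 935 and 2452. Nr4a3 had a median of 183 TPM at 1 h (rank 538) and Nr4a2 126 TPM (rank 705). Nr4a3 was above Nr4a2 in 9 of the 13 follicles, 6 of 10 in batch 1 and 3 of 3 in batch 2, so their order was not the same in all follicles. The 3 genes together held a median of 0.316% of all TPM at 1 h, with a range of 0.209% to 0.643%. Of that sum, Nr4a1 made up a median of 90.8% (83.6% to 96.6%), Nr4a3 5.55% and Nr4a2 4.29%. At 0, 4 and 8 h the Nr4a1 share had medians of 97.0%, 97.7% and 96.7%, on sums with medians of 5.70, 102 and 28.2 TPM.

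Tests used edgeR's quasi-likelihood F test with terms for time and batch, and adjusted p-values are Benjamini-Hochberg over all 8629 genes. At 1 h against 0 h all 3 members rose, where 34.6% of genes were called, 12.4% higher and 22.2% lower. Their log2 fold changes were 8.49 ± 0.80 (SE) for Nr4a1 (edgeR adjusted p = 4.09e-12), 7.94 ± 0.74 for Nr4a2 (3.45e-12) and 9.30 ± 0.68 for Nr4a3 (8.39e-16), or 359-fold, 246-fold and 632-fold. Among the fitted rises of all genes tested they ranked 2, 4 and 1. The 2 groups did not overlap for any member, as for 2.47% of genes in the higher direction.

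Because 0 h was only in batch 2, the fit leans on the 3 follicles that batch 2 holds at 1 h. Those had 3360, 3691 and 8971 CPM of Nr4a1, 235, 245 and 410 CPM of Nr4a2, and 203, 280 and 319 CPM of Nr4a3, so each was above all 9 follicles at 0 h. Within batch 2 alone the log2 fold changes were 8.33, 7.97 and 9.48 (edgeR adjusted p = 4.32e-06, 2.63e-06 and 7.23e-07). The authors' deposited table gives 369-fold, 269-fold and 746-fold for Nr4a1, Nr4a2 and Nr4a3.

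The size of the Nr4a2 and Nr4a3 folds depends on the few counts at 0 h. Pooled at equal depth, Nr4a1 was 356-fold higher at 1 h than at 0 h (95% exact interval 323 to 393), Nr4a2 304-fold (204 to 475) and Nr4a3 766-fold (371 to 1910). These intervals cover counting error only. Leaving out 0 h replicate 1, a choice made after its values were seen, gave 439, 537 (307 to 1040) and 4740 (850 to 187000), the last against 1 count. The fitted log2 fold changes without that library were 8.91, 8.78 and 10.99.

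By 4 h all 3 had fallen from the 1 h level, in a comparison where 54.8% of genes were called, 26% higher and 28.9% lower. The log2 fold change of 4 h against 1 h was -4.90 ± 0.54 for Nr4a1 (edgeR adjusted p = 1.17e-10), -6.95 ± 0.55 for Nr4a2 (4.57e-15) and -7.41 ± 0.47 for Nr4a3 (6.53e-18), or 29.9-fold, 123-fold and 170-fold lower. Among all fitted falls these ranked 16, 3 and 2. No member's 4 h follicles overlapped its 1 h follicles, as for 2.73% of genes in the lower direction. Both times are in both batches, and the log2 fold changes were -4.96, -6.88 and -7.18 in batch 1 alone and -4.45, -6.96 and -8.07 in batch 2 alone. In batch 1 the 1 h and 4 h follicles were on different plates, and the descriptions of batch 2 name no plate. The difference of this step between the batches, batch 2 minus batch 1, was 0.44 ± 0.61 for Nr4a1, -0.10 ± 1.11 for Nr4a2 and -0.86 ± 1.28 for Nr4a3, with edgeR adjusted p-values of 0.751, 0.976 and 0.764. None was called, as against 5.09% of the 5820 genes in that fit, and the SE of Nr4a2 and Nr4a3 leaves room for differences of several fold. Against 1 h, 8 h was lower as well, by log2 fold changes of -5.46 ± 0.60, -7.05 ± 0.59 and -7.04 ± 0.49 (edgeR adjusted p = 1.14e-10, 2.63e-14 and 1.03e-16), where 49.1% of genes were called, 23.2% higher and 25.9% lower. All 3 members were lower with no overlap, as for 4.6% of genes.

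Nr4a1 stayed above its 0 h level. At 4 h it was 213.5 ± 124.8 CPM (SD, n = 13), against 17.0 ± 13.5 CPM at 0 h (n = 9), a log2 fold change of 3.59 ± 0.67 (edgeR adjusted p = 1.37e-05). The groups did not overlap, as for 7.24% of genes in the higher direction. It was the 1 member called in this comparison, where 54.2% of genes were called, 21.9% higher and 32.2% lower. Nr4a2 at 4 h had a log2 fold change of 0.99 ± 0.89 against 0 h (edgeR adjusted p = 0.356) and Nr4a3 one of 1.90 ± 0.95 (edgeR adjusted p = 0.0859). The Nr4a3 value depends on 0 h replicate 1, without which it was 3.62 (edgeR adjusted p = 0.00598). In the authors' deposited table it is 4.19-fold with a false discovery rate of 0.0374, and Nr4a2 2.17-fold with 0.211.

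At 8 h against 0 h, Nr4a1 had a log2 fold change of 3.03 ± 0.77, or 8.17-fold (edgeR adjusted p = 0.00112), and was again the 1 member called, where 45.1% of genes were called, 17.5% higher and 27.6% lower. This value depends on 8 h replicate 4, without which it was 1.57 (edgeR adjusted p = 0.0124), and with all libraries thinned to the smallest total it was 2.33 and not called (0.0538). Nr4a2 had 0.89 ± 0.95 (edgeR adjusted p = 0.464) and Nr4a3 2.26 ± 0.96 (edgeR adjusted p = 0.0509). Ranges overlapped between 8 h and 0 h for all 3, while 8.36% of genes were higher at 8 h with no overlap. The 8 h follicles are all of batch 1 and the 0 h follicles all of batch 2, so this comparison is a sum of steps within batches. The Nr4a3 value lies at the threshold, and without 0 h replicate 1 it was 4.02 (edgeR adjusted p = 0.00323). In the authors' deposited table it is 4.85-fold with a false discovery rate of 0.0242, Nr4a1 8.53-fold with 1.21e-07 and Nr4a2 1.77-fold with 0.402.

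**Figure D3:**
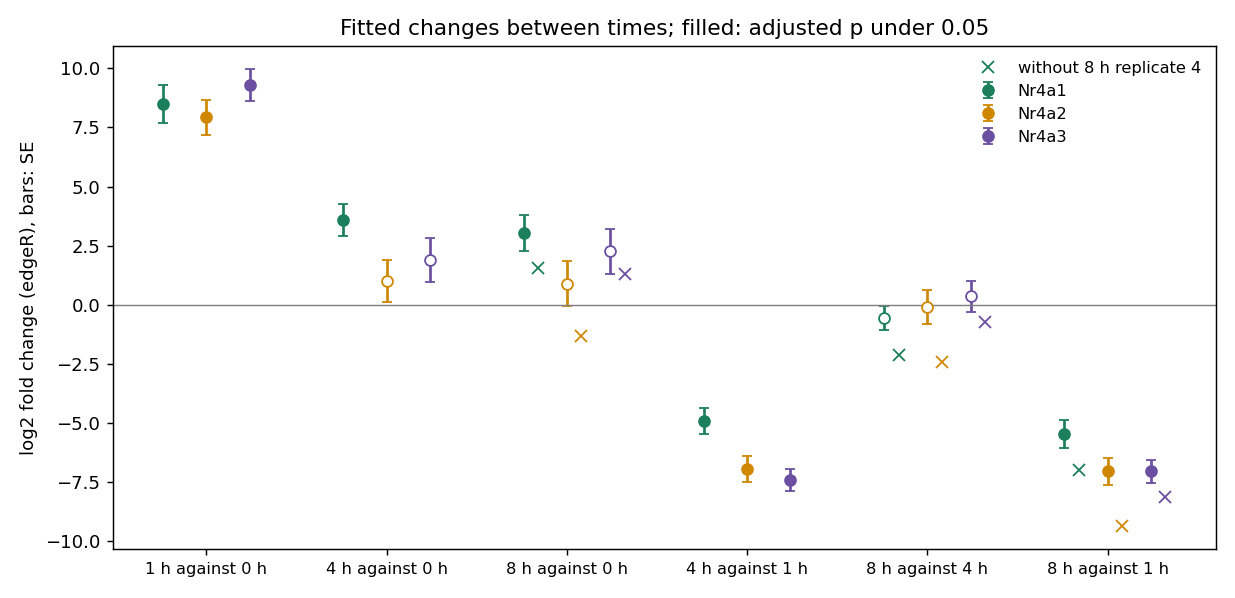
Fitted log2 fold changes of the 3 NR4A genes in each comparison, with SE bars; filled points have an edgeR adjusted p under 0.05 over 8629 genes, and crosses are the values without 8 h replicate 4. All 3 genes rose by 7.94 to 9.30 at 1 h against 0 h, and the crosses lie below the points in every comparison with 8 h.

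A single follicle, 8 h replicate 4, set the upper end at 8 h. It had 1122 CPM of Nr4a1, against 13.4 to 118 CPM in the other 10 follicles. It also had 17.5 CPM of Nr4a2, where the other 10 reached 1.42, and 8.92 CPM of Nr4a3, where they reached 1.57. These values were below all 1 h follicles for each member. The step of 8 h against 4 h was called for no member with this follicle in the fit, where 41.3% of genes were called, 19.8% higher and 21.6% lower. The log2 fold changes were -0.56 ± 0.51 for Nr4a1, -0.10 ± 0.71 for Nr4a2 and 0.36 ± 0.66 for Nr4a3 (edgeR adjusted p = 0.403, 0.928 and 0.696). In batch 1, per the descriptions in the labels, the 1 h and 8 h follicles were on plate 1 and the 4 h follicles on plate 2, so within that batch this step cannot be told apart from plate. With plate 1, plate 2 and batch 2 fitted as 3 sets of libraries in place of the batches, the values were -1.04, -0.08 and 1.06, again not called (edgeR adjusted p = 0.565, 0.987 and 0.643). Without replicate 4, a choice made after its values were seen, Nr4a1 was lower at 8 h than at 4 h by a log2 fold change of -2.14 (edgeR adjusted p = 6.54e-06) and Nr4a2 by -2.44 (0.0118), and Nr4a3 had -0.74 (0.435). Against 0 h the values without it were -1.32 for Nr4a2 (edgeR adjusted p = 0.292) and 1.28 for Nr4a3 (0.300).

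The same follicle was not high in every early gene. Comparison genes for it were picked after its values were known. Sik1, a kinase that cyclic AMP induces, was highest of the 11 there at 10.8 CPM, against 0.742 to 9.27 CPM in the others. Emd, the nuclear envelope protein emerin, was also highest, at 79.9 CPM against 25.4 to 62.65 CPM. Fosb, an AP-1 subunit, had 0.372 CPM and Atf3, a stress-induced factor, had 0 counts. Both were near 0 in the other 8 h follicles as well, at most 0.522 and 2.27 CPM, so they do not set this follicle apart. Other genes with profiles like a member's are named below. In this follicle Fbxo34 ranked 1 (highest) of the 11, Coq10b 2, Ell2 3, Btg2 and Tiparp 4, Ifrd1 9 and Ppp1r15a 11. Star, which moves cholesterol into mitochondria for progesterone synthesis, was lowest of the 11 at 16.4 CPM, against 38.1 to 1400 CPM in the others. Ereg, the EGF-like ligand epiregulin, was also lowest, at 2.97 CPM against 29.7 to 338 CPM.

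The order of median CPM for Nr4a1 was 1 h, 4 h, 8 h and 0 h, with 8 h and 4 h not called apart. For Nr4a2 it was 1 h, 4 h, 8 h and 0 h, and for Nr4a3 1 h, 8 h, 4 h and 0 h, and for these genes no pair among 0, 4 and 8 h was called. The joint edgeR test over the 4 times called all 3 (adjusted p = 3e-17, 1.09e-20 and 4.54e-24), where 79.8% of genes were called.

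Among the 3 genes, Nr4a2 had the widest spread between follicles at 1 h. At that time in batch 1 the highest follicle had 15.6 times the Nr4a2 CPM of the lowest, against 7.01 times for Nr4a3 and 3.16 times for Nr4a1. The SD of log2 CPM in these 10 follicles was 1.29 for Nr4a2, larger than that of 93.7% of genes tested, 0.90 for Nr4a3 (76.7%) and 0.54 for Nr4a1 (47.5%). The median gene had 0.56 in these follicles. At 0 h Nr4a1 varied more than 99.3% of genes, with an SD of 1.43, on values from 0.535 to 45.5 CPM. At 8 h its SD was 1.61 with all 11 follicles and 0.79 without replicate 4.

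Within the 10 follicles of batch 1 at 1 h, Nr4a2 and Nr4a3 varied together. Pearson's r of log2 CPM was 0.89 (permutation p = 0.00075, adjusted over 24 relations 0.0169) and Spearman's rho 0.79 (permutation p = 0.00893, adjusted 0.152). It was 0.84 without the 2 follicles farthest from the Nr4a2 median. Replicates 1 and 7 had 927 and 731 CPM of Nr4a2 and 398 and 559 CPM of Nr4a3, and were the 2 highest for both, while replicate 3 had 59.4 and 88.3 CPM. Nr4a1 with Nr4a2 had r = 0.75 (permutation p = 0.0129, adjusted 0.0776) and rho = 0.73 (p = 0.0191, adjusted 0.152), and r = 0.63 without the 2 farthest follicles. Nr4a1 with Nr4a3 had r = 0.73 (permutation p = 0.0165, adjusted 0.0792) and rho = 0.61 (p = 0.0663, adjusted 0.227), and 0.45 without the 2 farthest. No relation of a member with the total count was called, and r with the total count at 1 h was 0.57 for Nr4a1, 0.16 for Nr4a2 and 0.11 for Nr4a3.

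At 4 h in batch 1, Nr4a1 and Nr4a3 had r = 0.87 (permutation p = 0.00141, adjusted 0.0169) and rho = 0.77 (p = 0.0141, adjusted 0.152). Nr4a3 had at most 9 counts in any of these libraries and 0 in 4 of 10, and r was 0.65 without the 2 farthest follicles. At 8 h, r was 0.90 for Nr4a1 with Nr4a2, 0.77 for Nr4a1 with Nr4a3 and 0.77 for Nr4a2 with Nr4a3 (permutation p = 0.00954, 0.0351 and 0.0576, adjusted 0.0763, 0.120 and 0.173), with rho of 0.59, 0.41 and 0.18 (adjusted 0.227, 0.424 and 0.789). These rested on replicate 4, without which r was 0.44, 0.12 and -0.12. At 0 h no pair was called after adjustment, on the few counts of Nr4a2 and Nr4a3 there.

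**Figure D4:**
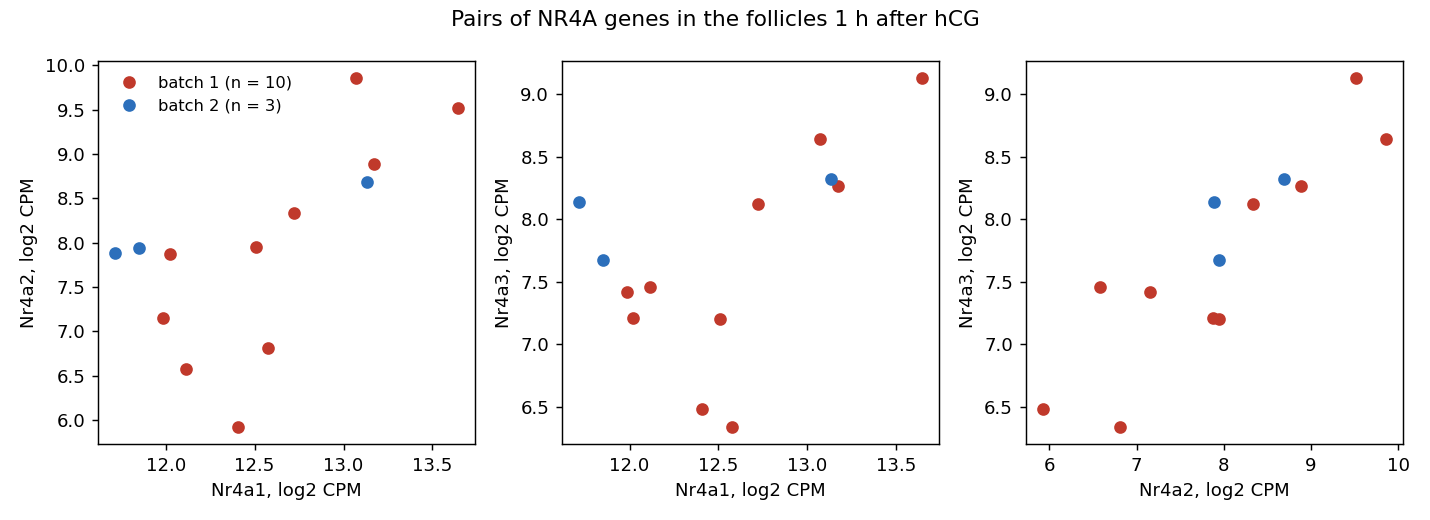
Log2 CPM of each pair of NR4A genes in the 13 follicles at 1 h, with the 10 of batch 1 in red and the 3 of batch 2 in blue. In batch 1, r is 0.75 for Nr4a1 with Nr4a2, 0.73 for Nr4a1 with Nr4a3 and 0.89 for Nr4a2 with Nr4a3.

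Over all 46 follicles, the gene most like Nr4a2 was Nr4a3 and the reverse, with r = 0.98 in log2 CPM. Nr4a1 had r = 0.91 with each, which ranked 10 for Nr4a2 and 9 for Nr4a3 among the genes most like it. These r describe profiles that share the same libraries and the same 1 h peak. Next to Nr4a3, the profiles closest to Nr4a2 were Fosb (0.95), Tiparp (0.94), which encodes an ADP-ribosyltransferase, Atf3 (0.93) and Ppp1r15a (0.93), a phosphatase subunit of the stress response. For Nr4a3 they were Fosb (0.95), Ell2 (0.94), an elongation factor, Fbxo34 (0.94), an F-box protein, and Atf3 (0.93). For Nr4a1 they were Btg2 (0.94), an antiproliferative early gene, Ifrd1 (0.94), a transcriptional coregulator, Emd (0.94), Sik1 (0.93) and Coq10b (0.92), a coenzyme Q protein. Mean log2 CPM of Btg2 was 5.28, 12.81, 9.26 and 7.05 at 0, 1, 4 and 8 h, so it was still above its 0 h mean at 4 h, as Nr4a1 was. Mean log2 CPM of Fosb was 1.51, 8.65, 1.23 and 0.48, at or under its 0 h mean by 4 h. Of these 11 genes other than the members, 10 have a RefSeq promoter window, and 7 of the 10 hold a CRE half-site (Atf3, Btg2, Coq10b, Ell2, Fosb, Ifrd1 and Ppp1r15a), against 23.0% of 27025 genes. The full CRE is in 3 of the 10 (Btg2, Ell2 and Ppp1r15a), against 2.03%. Of windows with at least 60% GC, 31.6% hold a half-site, and the GC content of the 10 windows was not compared. The 10 genes were picked from these same data for their 1 h peak, and a role of CREB in it was not tested.

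The other nuclear receptor genes were called about as often at 1 h as genes in general. Of 46 listed, 19 were tested, and at 1 h against 0 h 2 rose, 5 fell and 12 were not called, beside 12.4% of all genes called higher and 22.2% lower. Their median log2 fold change was -0.67, against -0.19 over all genes. The 2 that rose were Nr6a1 (germ cell nuclear factor, 0.98 ± 0.37) and Nr1d2 (the clock factor REV-ERBβ, 0.81 ± 0.24), with edgeR adjusted p-values of 0.0332 and 0.00886. Rara, a retinoic acid receptor, fell most, with -2.19 ± 0.43 (edgeR adjusted p = 0.000107), followed by the thyroid hormone receptor gene Thra at -1.33 ± 0.38 and the clock factor gene Nr1d1 at -1.32 ± 0.49. At 4 h against 0 h, 2 rose, 13 fell and 4 were not called, beside 21.9% of all genes higher and 32.2% lower, with a median of -1.21 against -0.12 over all genes. Pgr, the progesterone receptor needed for ovulation, rose by 7.17 ± 0.89 (edgeR adjusted p = 2.98e-09), when the NR4A genes were already down. It averaged 114.7 CPM at 4 h, against 3.62 CPM at 1 h and 0.444 CPM at 0 h. The estrogen receptor gene Esr2 (-3.11 ± 0.43) and the steroidogenic regulators Nr5a2 (-2.90 ± 0.30) and Nr5a1 (-2.60 ± 0.32) fell. At 8 h against 0 h, 1 rose, 11 fell and 7 were not called, beside 17.5% of all genes higher and 27.6% lower.

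**Figure D5:**
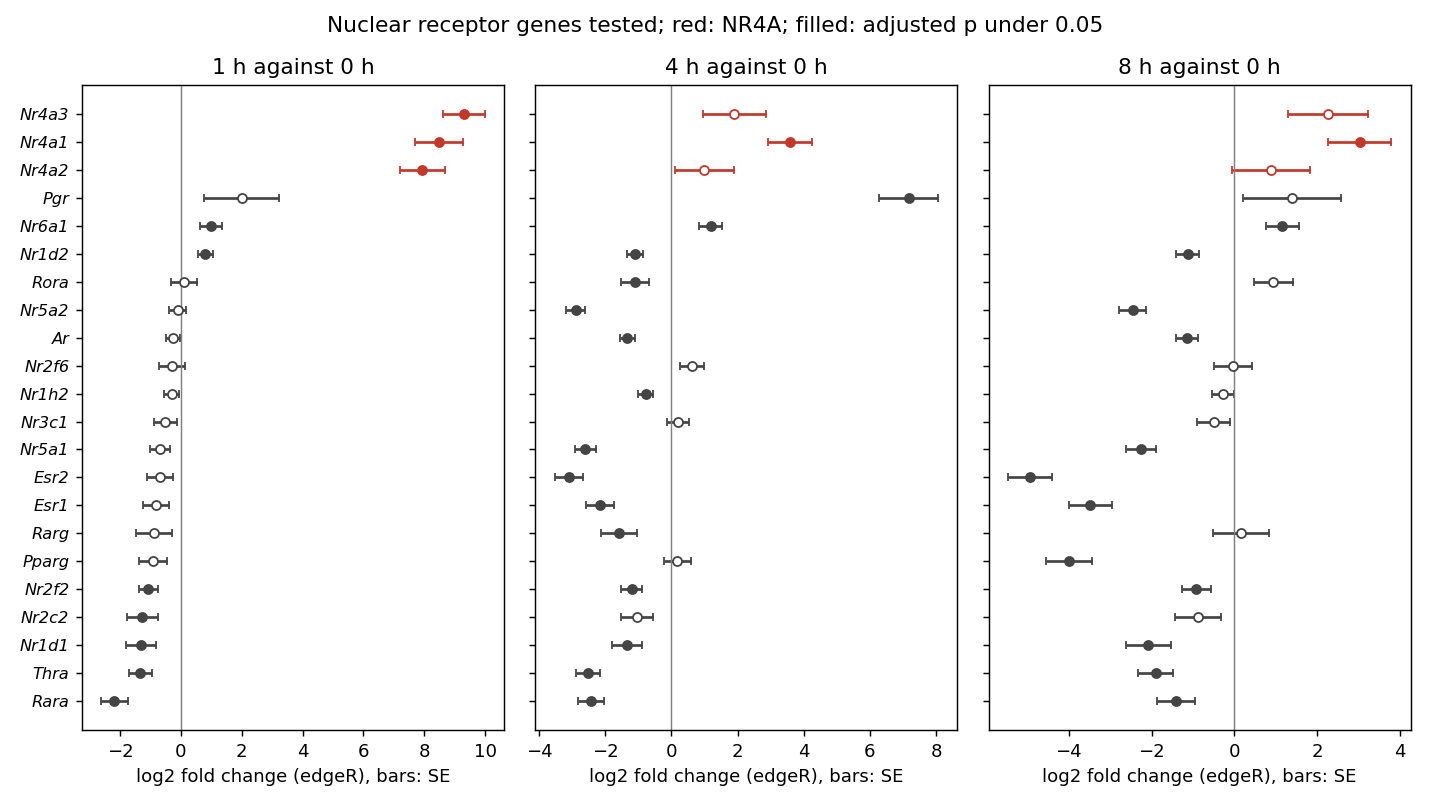
Fitted log2 fold changes with SE for the 3 NR4A genes (red) and the 19 other nuclear receptor genes tested (grey) at 1 h, 4 h and 8 h against 0 h; filled points have an edgeR adjusted p under 0.05. At 1 h the NR4A genes lie at 7.94 to 9.30, and Pgr has the highest value of the genes plotted at 4 h, 7.17.

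The cyclic AMP and CREB list holds genes of the route toward NR4A promoters together with genes that damp it. Of its 21 genes, 18 were tested, and 7 rose, 2 fell and 9 were not called at 1 h against 0 h. Their median log2 fold change was 0.15, against -0.19 over all genes, of which 12.4% were higher and 22.2% lower. Sik1 rose by 6.94 ± 0.53 and Crem, which also encodes the CREB repressor ICER, by 5.58 ± 0.50. Pde4b, a phosphodiesterase that breaks down cyclic AMP, rose by 2.30 ± 0.69, with edgeR adjusted p-values of 2.98e-15, 9.1e-13 and 0.00851 for the 3. Creb1 itself fell by 1.20 ± 0.34 (edgeR adjusted p = 0.00611) and the receptor gene Fshr by 1.43 ± 0.40 (0.00529). The remaining rises were Sik2 (1.83 ± 0.34), Gnas (0.88 ± 0.17), Atf1 (0.62 ± 0.25) and Prkar1a (0.60 ± 0.16). Crtc1, Crtc2, Crtc3, Crebbp and Prkacb were among the genes not called. At 4 h against 1 h, 4 rose, 7 fell and 7 were not called, beside 26% of all genes higher and 28.9% lower. Sik1 fell by 2.46 ± 0.30 in that step, against 4.90 to 7.41 for the NR4A genes, and the luteinizing hormone receptor gene Lhcgr fell by 2.59 ± 0.58. Of the ERK, SRF and MEF2 list, the other known inputs, 12 of 16 were tested and 3 rose, 1 fell and 8 were not called at 1 h against 0 h. That is close to the 34.6% called among all genes, and the median log2 fold change was -0.14, against -0.19 over all genes. Among the rises were the deacetylase gene Hdac5 (0.96 ± 0.34) and Mef2d (0.82 ± 0.30), which encodes a MEF2 factor, with edgeR adjusted p-values of 0.0259 and 0.027. At 4 h against 1 h, Mef2c fell by 2.40 ± 0.28 (edgeR adjusted p = 6.33e-10).

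Of 16 genes listed as partners and coregulators of NR4A proteins, 9 were tested, and at 1 h against 0 h 2 rose, 1 fell and 6 were not called, close to the 34.6% called among all genes. Their median log2 fold change was -0.50, against -0.19 over all genes. The rises were Stk11 (1.90 ± 0.47), which encodes the kinase LKB1, and Fhl2 (1.72 ± 0.43), a LIM domain protein, with edgeR adjusted p-values of 0.00153 and 0.00173. Fhl2 averaged 65.4 CPM at 1 h, against 15.2 CPM at 0 h, and in the step of 4 h against 1 h it fell by 3.68 ± 0.32. The retinoid X receptor genes Rxra and Rxrb, partners of NR4A1 and NR4A2, did not pass the filter and averaged 2.75 and 2.64 CPM at 1 h, against 7.42 and 4.76 CPM at 0 h. Rxrg had 0 counts in every library.

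Reported NR4A targets moved in both directions. Most of these reports come from other cells, such as mouse Leydig cells for Star, Cyp17a1 and Insl3 and mouse T cells for Tox and Tox2. Of 17 listed, 10 were tested. At 1 h against 0 h, 4 rose, 1 fell and 5 were not called, beside 34.6% of all genes called, with a median log2 fold change of 0.20 against -0.19 over all genes. Star rose by 6.11 ± 0.75 (edgeR adjusted p = 1.01e-08) and averaged 438 CPM at 1 h, against 5.94 CPM at 0 h. Spp1, the secreted protein osteopontin, rose by 3.31 ± 0.77 and Nfkbia, the inhibitor of NF-κB, by 2.67 ± 0.29. At 4 h against 0 h, 3 rose, 6 fell and 1 was not called, beside 54.2% of all genes called, with a median of -1.51 against -0.12 over all genes. Star was at 7.41 ± 0.82 and Spp1 at 5.74 ± 0.70, while the theca genes Cyp17a1 (-3.39 ± 0.77) and Insl3 (-2.82 ± 0.75) and Tox2 (-2.92 ± 0.37) fell. At 8 h against 0 h, 3 rose, 6 fell and 1 was not called, beside 45.1% of all genes called, and Spp1 reached 12.22 ± 0.81, with a mean of 5191 CPM at 8 h against 0.905 CPM at 0 h. Cyp19a1, the aromatase gene, was the remaining rise at 1 h against 0 h, by 1.83 ± 0.42 (edgeR adjusted p = 0.000642). It then fell by 4.47 ± 0.35 in the step of 4 h against 1 h (edgeR adjusted p = 4.14e-15). Its means were 165, 613, 27.2 and 26.3 CPM at 0, 1, 4 and 8 h. None of the 12 targets with a RefSeq promoter window holds the NBRE in it, against 1.7% of all genes.

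Some markers of other cell types moved at the same times. The 6 smooth muscle markers summed to a median of 1210 CPM at 1 h (482 to 2410), against 142 CPM at 0 h (27.0 to 475), and 3 of them were tested. Most of this sum was Acta2, with a mean of 1266 CPM at 1 h and 163 CPM at 0 h. The markers not tested were near 0 at both times. Myh11 averaged 1.04 CPM at 0 h and 0.444 CPM at 1 h, Cnn1 0.348 and 0.736 CPM, and Des 0.335 and 0.668 CPM. Acta2 rose by 2.85 ± 0.48 and Actg2 by 2.40 ± 0.58 (edgeR adjusted p = 7.57e-06 and 0.00134), and Tagln had 1.86 ± 0.75 (0.0501). At 4 h the sum was 802 CPM and at 8 h 237 CPM in the median. The 12 theca and stroma markers summed to a median of 655 CPM at 1 h, against 422 CPM at 0 h, and none of 9 tested was called in that comparison. The 6 endothelial markers summed to a median of 8.24 CPM at 0 h, 30.2 CPM at 1 h, 10.5 CPM at 4 h and 11 CPM at 8 h. The largest part was Cdh5, with a mean of 7.55 CPM at 0 h and 30.2 CPM at 1 h. The endothelial markers not tested did not all move the same way from 0 h to 1 h. Means of Cldn5 were 3.16 and 8.95 CPM, of Pecam1 1.69 and 3.83 CPM, and of Emcn 0.978 and 1.11 CPM. Kdr was lower at 1 h, at 1.27 and 0.64 CPM, and Tek had only 3 and 1 counts in all. The 1 endothelial gene tested, Cdh5, rose by 1.98 at 1 h against 0 h and fell by 1.56 at 4 h against 1 h (edgeR adjusted p = 0.0196 and 0.00495). The 6 leukocyte markers summed to a median of 26.8 CPM at 1 h, against 18.7 CPM at 0 h. The largest part was Lyz2, with a mean of 39.8 CPM at 0 h and 60.4 CPM at 1 h. It was the 1 leukocyte gene tested and was not called (log2 fold change 0.55 ± 1.05, edgeR adjusted p = 0.712). Means of Cd68 were 1.27 and 1.48 CPM, and of Adgre1 0.436 and 1.07 CPM. Tyrobp was lower at 1 h, at 1.24 and 0.923 CPM. Cd52 had 1 count in all at each of these times. Ptprc had 2 counts in all at 0 h and 0 counts in all 13 libraries at 1 h. The part of these other cells in the NR4A rise was not tested.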

How the data were processed

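Single follicles were profiled with Smart-Seq2 and Nextera XT as paired ends, per the labels' protocols, and these libraries carry no strand. Reads were aligned with HISAT2 to GRCm38 and compared with DESeq2 in Partek, per the submitters' processing notes, with versions not given in the sources used here. The authors deposited whole-number counts adjusted between batches with ComBat-seq, according to the table's name, and TPM computed from them. Because 0 h is in 1 batch and 8 h in the other, how that adjustment treated time could affect the 8 h comparisons, and its settings are not given in the sources used here. Per the file headers, a deposited table of the authors' tests against 0 h gives p-values, false discovery rates (FDR) and signed fold changes, which are a score and not a log value, and a summed signal named total counts that the authors had normalized, which was not used. Of 56 columns, 10 matched no described follicle and were not used.

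The adjusted counts of all 46 libraries entered 1 model in edgeR 4.0.16 (R 4.3.3) with terms for time and batch, TMM factors and filterByExpr on time, tested by quasi-likelihood F. Adjusted p-values are Benjamini-Hochberg, and calls were made under 0.05. CPM are counts over library totals scaled by TMM factors, and log2 CPM used a prior count of 2. The biological coefficient of variation was 33.3%. Correlations used scipy 1.17.1 with exact tests (9 follicles) or 100000 permutations (10 or 11), two-sided. The fits were tested on simulated data. Alternatives were RLE factors, no filter, other batch terms, a replicate block, each batch alone, no libraries marked "_ds" (5 at 0 h), genes counted in batch 2 after hCG, thinning, DESeq2 1.42.0, limma 3.58.1 on log2 TPM (pseudocounts 1 and 0.1) and left-out libraries. Leaving out 0 h replicate 1 and 8 h replicate 4 was added after the data were seen.

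The members and gene lists were chosen with earlier results of these data known. Named genes were the 3 members, for each the 5 genes with the highest r of log2 CPM, and in each list and comparison at most 3 rises and 3 falls among called genes, of which the text gives a part. For the cyclic AMP and CREB list and the reported targets, the remaining rises at 1 h against 0 h were named as well. Promoter windows are from RefSeq (GRCm38.p6), matched by symbol for 3 of 3 members.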

Additional observations from a re-analysis of the deposited data

Results flagged for a closer look

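At 0 h, replicate 1 had 2.36 CPM of Nr4a3, and its gap to the next follicle was 0.788 of the range of the 9 follicles. It held 6 of the 7 counts of the gene at that time. Among the 9 pairs of a member and a group of 4 to 10 follicles that were examined in this way it was the 1 flagged. With 7 of the 9 follicles tied at 0 counts, no chance rate can be given for such a gap. The 8 h group of 11 follicles was too large for this check, so 8 h replicate 4 could not be flagged. The flagged library, 0 h replicate 1, also had the highest Nr4a1 (45.5 CPM) and Nr4a2 (4.71 CPM) of its time.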

How the results depend on the processing

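The rises at 1 h against 0 h and the falls at 4 h and 8 h against 1 h kept their direction and call for all 3 genes under every alternative run. The log2 rise ranged over them from 7.63 to 10.66 for Nr4a1, 6.72 to 12.40 for Nr4a2 and 7.36 to 13.76 for Nr4a3. Of the NR4A results under alternatives, 406 kept direction and call, 13 gained a call, 2 lost one and 8 changed sign, none of the 8 with a call.

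For Nr4a3 at 8 h against 0 h, the log2 fold change was called with RLE factors (2.37), with no batch term (2.20) and over genes counted in batch 2 after hCG (2.43). For Nr4a1 at 8 h against 0 h it was not called when libraries were thinned to the smallest total (2.33). For Nr4a1 at 8 h against 4 h it was called with limma on log2(TPM + 1) (-1.65) and log2(TPM + 0.1) (-1.69). Thinned libraries gave 0.12 for Nr4a2 and -1.21 for Nr4a3 at 8 h against 4 h, and 1.86 for Nr4a2 in the difference between batches. The cause of these shifts was not tested.

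Only some libraries were left out 1 at a time, namely replicates 11 to 13 at 1 h and at 4 h, 0 h replicate 1 and 8 h replicate 4. The last 2 were left out only in comparisons with their own time, and the ranges do not cover the other libraries. They were 1.78 to 3.62 for Nr4a3 at 4 h against 0 h. At 8 h against 0 h they were -1.32 to 1.81 for Nr4a2 and 1.28 to 4.02 for Nr4a3, where leaving out 1 h replicate 12, 4 h replicate 11 or 13, or 0 h replicate 1 gave a call. At 8 h against 4 h they were -2.14 to -0.44 for Nr4a1, -2.44 to -0.034 for Nr4a2 and -0.74 to 0.43 for Nr4a3. In the difference between batches they were -0.32 to 1.09 for Nr4a1 and -0.45 to 0.25 for Nr4a2.

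Genes called against 0 h numbered 2985, 4673 and 3892 at 1, 4 and 8 h, and 270, 675 and 502 thinned. For 4 h against 1 h they were 4733 (894 thinned), for 8 h against 4 h 3567 (421) and for 8 h against 1 h 4239 (801), with 1244 in the joint test (6883 unthinned) and 19 between batches (296 unthinned, and 474 with DESeq2). With plate 1, plate 2 and batch 2 fitted as 3 sets they were 2054 at 4 h against 1 h and 1446 at 8 h against 4 h. In batch 2 alone they were 1879 at 1 h against 0 h and 1242 at 4 h against 1 h.

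No clear pairing by replicate number was seen. Over 62 same-numbered pairs the correlation of deviations ran from -0.202 to 0.245, and 7 of 46 libraries correlated best with their own number. These values cannot show whether same-numbered follicles share an animal. With the replicate block, genes called against 0 h numbered 355 at 1 h, 1479 at 4 h and 852 at 8 h. Nr4a1 then had 4.17 at 8 h against 0 h (edgeR adjusted p = 0.0899) and -1.40 at 8 h against 4 h (0.0144).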

Other observations

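Nr0b2, which encodes the small heterodimer partner, a nuclear receptor without a DNA-binding domain that is reported to interact with other receptors, was among the listed receptors that the count filter left out. It was chosen here after its values were seen. It averaged 1761 ± 1182 CPM at 0 h (SD, n = 9), with a range of 0.750 to 3755 CPM. At 1, 4 and 8 h it averaged 0.342, 0.211 and 0.510 CPM, on 3, 5 and 9 counts. It is one of the 3332 genes with counts in batch 1 but none in batch 2 after hCG, so its difference is also seen within batch 2. That set held 22.6% to 46.2% of the counts of the 0 h libraries and at most 0.0667% of any later library. A change with time and a trait of the 0 h libraries as a whole therefore cannot be told apart.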
